A study of Mus musculus with 3 samples.

Results

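The 9 genes described here mark resting microglia and were followed across cell states of the mouse hippocampus: the surface receptors Cx3cr1, Gpr34, Siglech and Fcrls, the membrane proteins Tmem119 and Ecscr, the secreted proteins Olfml3 and Sparc, and the crystallin gene Crybb1. They were taken by symbol from the 31053 genes listed for each run, and all 9 were found. Single tdTomato-positive cells from both hippocampi, freed of myelin and sorted by flow cytometry, were sequenced in 3 droplet runs that form 1 group. Every animal had the genotype Cx3cr1CreERT2/+; Rosa26tdTomato/+; NestinTK-eGFP/+ and received tamoxifen at 100 mg/kg on 4 days, which switches on the tdTomato reporter in cells that express the Cre recombinase from the Cx3cr1 locus. The cells came from 12 animals, 6 of each sex, which the labels do not assign to runs. P-values across runs therefore reach no further than the spread between these runs, and that spread may be technical. In the tests against the comparison population described below, the spread was shared by genes. A p-value or SE there does not measure how far the runs differed for a single gene. One Cx3cr1 allele carries the Cre insertion in all of these animals, so no level of Cx3cr1 from 2 intact alleles was measured. The sort also kept only cells in which the reporter had been switched on from the Cx3cr1 locus. Levels of Cx3cr1 in every population therefore describe cells selected through that locus, and the part of this selection in them was not tested.

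Microglia are the resident macrophages of the brain, and in the healthy brain they keep a set of receptors and secreted proteins that is maintained by TGF-beta signalling and is used to tell them from other macrophages. Cx3cr1 binds the neuronal chemokine fractalkine, Gpr34 is a receptor for lysophosphatidylserine, Siglech is a sialic acid-binding lectin that signals with the adaptor Tyrobp, and Fcrls is a scavenger receptor related to Fc receptors. Border macrophages live in the meninges and around vessels, share part of this set and are marked by other genes such as Mrc1 and Pf4. Sparc and Olfml3 are secreted matrix-associated proteins, Crybb1 is best known as a lens protein, and Ecscr was described at the surface of endothelial cells.

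On the GRCm38 assembly, Cx3cr1 (ENSMUSG00000052336) spans chr9:119901616-120069879, Gpr34 chrX:13632089-13640858, Tmem119 chr5:113793729-113800516, Siglech chr7:55768178-55778925, Fcrls chr3:87250758-87263738, Crybb1 chr5:112255815-112269585, Olfml3 chr3:103722222-103738001 and Sparc chr11:55394500-55423183, and each is annotated as protein coding, as is Ecscr. Gpr34 lies inside Cask and Ecscr inside 1700066B19Rik, both on the opposite strand. The annotated span of Cx3cr1 covers 9 other genes, among them Gorasp1, Csrnp1 and Xirp1 on the same strand. Whether counting used strand is not given in the sources used here, so reads shared with these neighbours cannot be told apart.

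Promoters are shown for Fcrls and Crybb1, since Fcrls was not called lower and Crybb1 was in both lipid and phagocyte cells and border macrophage cells. RefSeq start sites on GRCm38.p6 were used for 6 of the 9 genes. The 250 bases before the start are printed 5′ to 3′ on the strand of the gene, at chr3:87263525-87263774 (minus strand) for Fcrls and chr5:112255570-112255819 (plus strand) for Crybb1. Capitals mark the letters GAGGAA, bound by PU.1 and other ETS factors, searched on both strands.
Fcrls: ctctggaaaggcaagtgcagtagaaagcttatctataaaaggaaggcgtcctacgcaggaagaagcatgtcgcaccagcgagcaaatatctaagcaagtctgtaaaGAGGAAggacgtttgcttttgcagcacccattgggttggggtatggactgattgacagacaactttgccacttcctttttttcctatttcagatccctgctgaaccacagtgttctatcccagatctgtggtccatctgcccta
Crybb1: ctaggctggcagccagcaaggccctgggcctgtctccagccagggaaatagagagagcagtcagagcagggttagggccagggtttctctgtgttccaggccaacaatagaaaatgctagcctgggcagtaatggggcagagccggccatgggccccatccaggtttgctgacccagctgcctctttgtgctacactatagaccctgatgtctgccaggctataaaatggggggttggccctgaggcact
Among the 6 promoters GAGGAA was found in Fcrls only, and 23.3% of all 32851 promoters of this length hold it. A loose MEF2 pattern, which allowed any base at its middle positions, was searched on both strands. It was found in Cx3cr1 only, against 3.20% of all promoters. The Cx3cr1 match has a G among its middle bases, so it misses the stricter motif with only A or T there. The AP-1 letters TGANTCA, also searched on both strands, were found in none of the 6, against 6.75% of all promoters. A match describes letters in this window and is not a binding site.

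UMIs (unique molecular identifiers) count captured RNA molecules. Barcodes with 1000 UMIs or more, 500 genes or more and a mitochondrial share of 10% or less were kept as cells, which left 6993, 6720 and 6078 cells with a median of 4425, 3438 and 3696 UMIs in runs 1, 2 and 3. Runs shared 7 to 10 cell barcodes with each other. Cells with at least 4 of 6 resident myeloid markers were divided by gates, each a minimum number of markers of a list that holds none of the 9 genes, so a gated population is a range of marker counts and not a cell type. The comparison population was the 18086 myeloid cells that passed no gate, called ungated microglia-like cells here. They made up 90.3%, 93.4% and 90.4% of the cells of runs 1, 2 and 3. The gates for 9 of 10 lipid and phagocyte markers (such as Spp1, Lpl, Cst7 and Itgax), for the chemokines Ccl3 and Ccl4, for interferon-induced genes, cell cycle genes, MHC class II genes and border macrophage markers (Mrc1, Pf4, Lyve1, Cd163, F13a1 and Cbr2) hold from 5 to 77 cells in a run. Cells of both sexes were mixed in each run, so a cell with both Xist and a Y-linked UMI may hold RNA of more than 1 cell. Such cells were 2.30% of the ungated and 19.7% of the border macrophage population.

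All 9 genes were abundant in ungated microglia-like cells, and several differed by run. Olfml3 had 1625, 2711 and 1328 CPM (UMIs of the gene scaled to a common total of UMIs per population) in runs 1, 2 and 3, and Tmem119 had 1928, 2867 and 2121 CPM. Both were highest in run 2, whereas Cx3cr1 was lowest there, with 2920, 2066 and 2689 CPM. Gpr34 varied least, with 2675, 2731 and 2841 CPM. Sparc had 3016, 4200 and 3505 CPM, Fcrls 2329, 2793 and 2094 CPM, and Siglech 1815, 1554 and 1814 CPM. Crybb1 had 480, 607 and 420 CPM and Ecscr 607, 661 and 561 CPM. These levels are a description with no test, and because of the run differences each population is set against the ungated cells of its own run. With every cell drawn down to 2000 UMIs, an ungated cell held on average 8.02 ± 0.15 of the 9 transcripts (SD, n = 3 runs). In that thinned data the share of cells with a UMI ran from 55.7% ± 5.7 for Crybb1 and 68.6% ± 3.1 for Ecscr to 99.5% ± 0.3 for Sparc (SD, n = 3 runs).

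Lipid and phagocyte cells, 49, 48 and 18 in runs 1, 2 and 3, had lower levels of 8 of the 9 genes and no called change of Fcrls. Tmem119 had 732, 1152 and 779 CPM in these cells, against 1928, 2867 and 2121 CPM in ungated cells of runs 1, 2 and 3. Every lipid and phagocyte value lay below every ungated value, and Tmem119 fell by a log2 change of -1.37 ± 0.10 (SE, n = 3 runs), with adjusted p = 1.79e-42 in the edgeR quasi-likelihood test with the run as a block. Crybb1 had 215, 256 and 127 CPM against 480, 607 and 420 CPM, and Siglech had 1020, 779 and 662 CPM against 1815, 1554 and 1814 CPM. Neither gene overlapped between the populations, and the log2 changes were -1.26 ± 0.13 for Crybb1 and -1.03 ± 0.10 for Siglech (SE). Ecscr, Cx3cr1 and Gpr34 were also lower, by log2 changes of -0.78 ± 0.12, -0.62 ± 0.09 and -0.54 ± 0.09 (SE). The secreted proteins moved least among the called genes, Olfml3 by -0.45 ± 0.09 and Sparc by -0.45 ± 0.09 on the log2 scale (SE). For Olfml3, 1132, 1913 and 1110 CPM stood against 1625, 2711 and 1328 CPM, and its value in run 2 was above the ungated values of the other runs, so this fall is seen only within runs.

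Fcrls had 2064, 2462 and 1976 CPM in lipid and phagocyte cells against 2329, 2793 and 2094 CPM in ungated cells, a log2 change of -0.15 ± 0.09 (SE, adjusted p = 0.301, edgeR). It was lower in each of the 3 runs, but by less than the test could call. The count of 8 of 9 stands beside 6.45% of the 11163 genes tested that were called lower, and the median log2 change was -0.62 for the 9 genes and -0.10 for all genes tested. Of 20 other homeostatic genes, 16 were lower and none higher. They include the ADP receptor P2ry12 at -1.56 ± 0.09, the sugar transporter Slc2a5 at -1.45 ± 0.15, Selplg, which encodes the P-selectin ligand, at -1.41 ± 0.09 and the adhesion receptor Adgrg1 at -1.16 ± 0.14 (log2 change, SE). Of 8 signalling partners of the receptors 7 could be tested, of which 1 was higher, 2 were lower and 4 (Hcst, Gnai3, Adam10 and Adam17) were not called. Tyrobp, the adaptor of Siglech, rose by 0.38 ± 0.08, while Gnai2 and Arrb2, through which chemokine receptors signal, changed by -0.42 ± 0.10 and -0.60 ± 0.15 on the log2 scale (SE). Without the run as a block 3 of the 9 genes were called, Tmem119, Crybb1 and Siglech. When cells were thinned to 2000 UMIs before gating, 15, 12 and 10 cells remained, the median of all genes tested shifted to -0.82 and all 9 genes were called, with Fcrls at -1.11 (adjusted p = 5.81e-08).

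**Figure D1:**
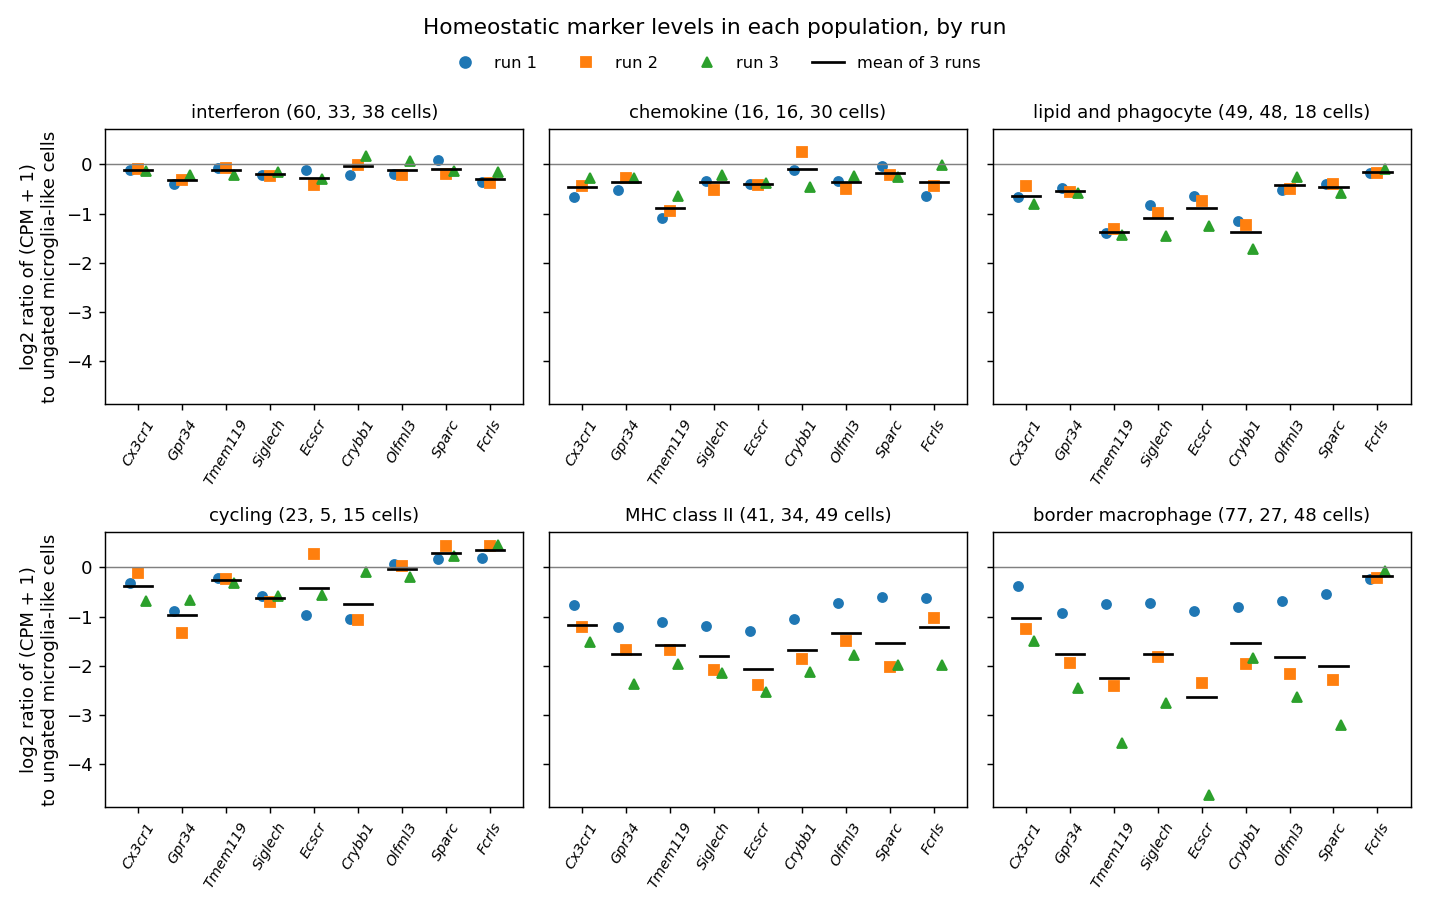
Log2 ratio of CPM (plus 1) of each gene in 6 populations to ungated microglia-like cells of the same run, with 1 point per run and a bar at the mean of the 3 runs; titles give the cells in runs 1, 2 and 3. In lipid and phagocyte cells Tmem119 sits between -1.44 and -1.31 while Fcrls sits between -0.18 and -0.08, and in border macrophage cells the 3 runs are far apart for most genes but not for Fcrls.

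The falls were graded with the number of lipid and phagocyte markers in a cell. Counting cells with no border macrophage or MHC class II gate, 16562 cells had none of the 9 markers, 2374 had 1, 324 had 2, 106 had 3 and 61 had 4 or more. The mean of Tmem119 over runs went from 2349 ± 511 CPM with no marker through 2004 ± 394, 1427 ± 367 and 958 ± 137 CPM to 685 ± 231 CPM with 4 or more (SD, n = 3 runs). In log2 units against the cells with no marker of the same run, that is -0.23, -0.73, -1.28 and -1.81, and in each run every step was downward. Siglech followed with -0.12, -0.52, -0.96 and -1.32, and Ecscr with -0.23, -0.56, -0.86 and -1.56. Gpr34 reached -0.92 at 4 or more markers, Cx3cr1 -0.75, Sparc -0.62 and Olfml3 -0.57. Crybb1 was at -1.51 with 3 markers and -1.36 with 4 or more, and so did not go down at the last step. Fcrls was at -0.03, -0.16, -0.25 and -0.21, and its last 2 steps did not order in the same way in the 3 runs. These are means without a test, the 2 highest groups hold as few as 19 and 14 cells in a run, and the median depth was higher with the markers, in run 1 from 4323 UMIs with none to 7965 UMIs with 4 or more, whose part in the levels was not tested.

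**Figure D2:**
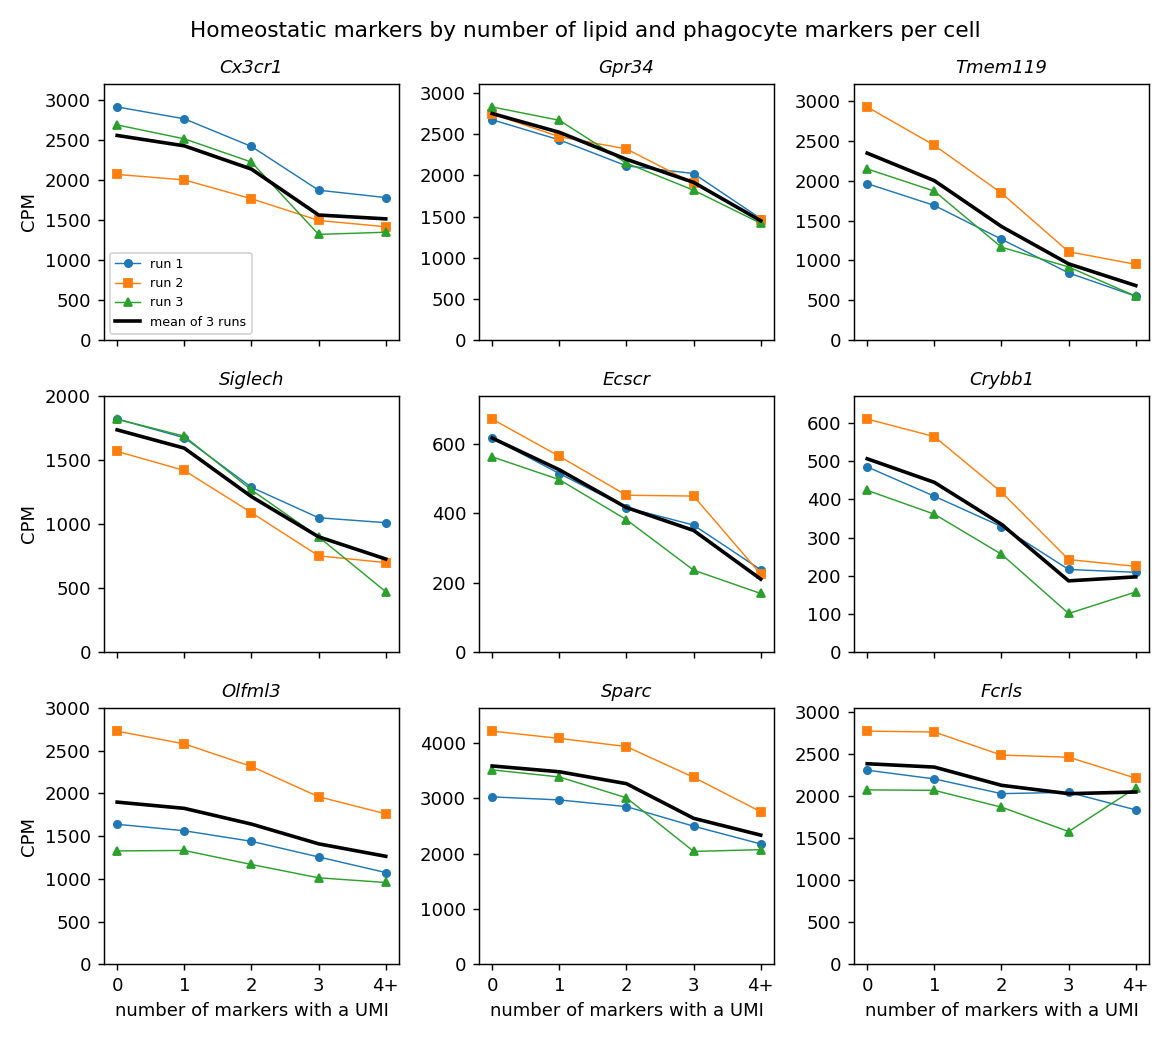
CPM of each gene (y axis, from 0) in cells grouped by the number of lipid and phagocyte markers with a UMI (x axis, 4+ being 4 or more), 1 thin line per run and a thick line for the mean of 3 runs. Mean Tmem119 goes from 2349 to 685 CPM and mean Siglech from 1739 to 729 CPM, while mean Fcrls stays between 2025 and 2381 CPM.

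Chemokine cells, with Ccl3 and Ccl4 both present and at least 10 UMIs of the pair, numbered 16, 16 and 30 and shared the fall of Tmem119. Tmem119 had 908, 1479 and 1365 CPM there, below the ungated value of every run, and had a log2 change of -0.93 ± 0.13 (SE), with adjusted p = 2.05e-10 in edgeR. Cx3cr1, Olfml3, Gpr34 and Fcrls were also called, at -0.50 ± 0.12, -0.41 ± 0.13, -0.41 ± 0.12 and -0.40 ± 0.12 (log2 change, SE), which makes 5 of 9 beside 1.61% of 11010 genes called lower. The median of all genes tested was itself at -0.24, and at -0.12 under the DESeq2 size factors, and each change is to be read against that shift. Of all genes 169 were called higher and 177 lower, and 235 and 119 under the DESeq2 size factors. Under that scaling, under the DESeq2 test, without run 1 and without run 2, Tmem119 was the only gene of the 9 called, and without the run block none was. Crybb1, at -0.14 ± 0.16 (SE), had 447, 726 and 306 CPM and was above the ungated cells in run 2. Sparc was at -0.22 ± 0.12, Siglech at -0.40 ± 0.13 and Ecscr at -0.45 ± 0.16, none of them called. Among the 20 other homeostatic genes 8 were lower, led by Ltc4s, which encodes leukotriene C4 synthase, at -0.90 ± 0.15, the transcription factor Sall1 at -0.87 ± 0.21, P2ry12 at -0.84 ± 0.12 and the transporter Slco2b1 at -0.84 ± 0.17 (SE). The immediate early genes summed to 1163 to 3192 CPM in chemokine cells and 128 to 1550 CPM in ungated cells, and their part in these changes was not tested.

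Set directly against chemokine cells, lipid and phagocyte cells had lower Crybb1 (-1.32 ± 0.23), Siglech (-0.73 ± 0.16) and Tmem119 (-0.51 ± 0.16, log2 change, SE), 3 of 9 beside 5.07% of the 2012 genes tested. Crybb1 had 215, 256 and 127 CPM in the former and 447, 726 and 306 CPM in the latter, with no overlap, and its adjusted p was 2.99e-05 (edgeR). The difference in Tmem119 had an adjusted p of 0.0302, was lost without the run block and was 0.01 when the gates of both populations were loosened together. Fcrls differed by 0.19 ± 0.14 in the other direction and was not called (SE, adjusted p = 0.469). Without run 3 the count was 1.

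Interferon cells, with at least 4 of 11 interferon-induced markers, numbered 60, 33 and 38 and kept most of the set. Gpr34 had 2024, 2198 and 2449 CPM, each below every ungated value, and fell by 0.34 ± 0.07 log2 units (SE), with adjusted p = 5.89e-05 in edgeR. Fcrls had 1825, 2152 and 1896 CPM, lower than the ungated cells of the same run in all 3 runs, and fell by 0.32 ± 0.07 (SE, adjusted p = 0.000379). These are 2 of 9 beside 0.233% of 11152 genes called lower, and neither was called without run 1 or without the run block. The other 7 genes lay between -0.27 ± 0.10 for Ecscr and -0.08 ± 0.10 for Crybb1 (log2 change, SE), none of them called, and the median of all genes tested was -0.07. Tmem119 stayed at 1836, 2736 and 1826 CPM, with a log2 change of -0.14 ± 0.07 (SE, adjusted p = 0.569). Of the other homeostatic genes 3 were lower, Ltc4s at -0.40 ± 0.08, Rhob, a small GTPase, at -0.27 ± 0.08 and P2ry12 at -0.26 ± 0.06 (SE).

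In the direct test lipid and phagocyte cells had lower levels than interferon cells of 6 of the 9 genes, beside 8.76% of 3926 genes tested. Tmem119 differed by -1.22 ± 0.10, Crybb1 by -1.15 ± 0.17, Siglech by -0.78 ± 0.11, Ecscr by -0.49 ± 0.15, Cx3cr1 by -0.47 ± 0.09 and Sparc by -0.32 ± 0.08 (log2, SE). The adjusted p of Tmem119 was 2.69e-12 (edgeR), and without the run block 3 of the 9 remained called. Gpr34 differed by -0.16 ± 0.09 and Fcrls by 0.20 ± 0.09, neither called (SE).

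Cycling cells numbered 23, 5 and 15, too few in run 2 for a test. Gpr34 had 1439, 1085 and 1786 CPM, below every ungated value, and Siglech had 1220, 958 and 1210 CPM, also below every ungated value. Fcrls had 2652, 3766 and 2891 CPM and Sparc 3420, 5713 and 4147 CPM, each above the ungated cells of the same run in all 3 runs. When cycling cells that passed a second state gate were counted too, 37, 13 and 18 cells could be tested. Gpr34 was then lower by a log2 change of -1.27 ± 0.16, Ecscr of -1.04 ± 0.18, Siglech of -0.94 ± 0.16, Crybb1 of -0.89 ± 0.18, Cx3cr1 of -0.66 ± 0.16 and Tmem119 of -0.56 ± 0.16 (SE), 6 of 9 beside 8.85% of 11249 genes. Sparc at 0.01 ± 0.15, Fcrls at 0.04 ± 0.15 and Olfml3 at -0.24 ± 0.15 were not called (SE). The median of all genes tested was -0.16.

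Cells with at least 2 of the transcripts Emp3, Fxyd5 and Tnfsf13b, 253, 188 and 202 in number, had small falls of 7 of the 9 genes beside 1.21% of 11449 genes. Fcrls had 1533, 1959 and 1485 CPM, each below every ungated value, and a log2 change of -0.50 ± 0.04 (SE, adjusted p = 3.84e-42, edgeR). Crybb1 changed by -0.50 ± 0.05, Ecscr by -0.36 ± 0.05 and Gpr34 by -0.24 ± 0.03, while Siglech, Tmem119 and Cx3cr1 changed by -0.15 ± 0.04, -0.14 ± 0.03 and -0.13 ± 0.03 (log2, SE). Olfml3 at 0.00 ± 0.04 and Sparc at -0.06 ± 0.03 were not called. This gate lies close to a large group, since 4631 cells held exactly 1 of the 3 transcripts and 747 exactly 2, and no gene of the 9 was called without the run block. Among the other homeostatic genes 11 were lower, the largest being P2ry13 at -0.33 ± 0.04 and P2ry12 at -0.28 ± 0.03 (log2, SE).

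Immediate early cells were almost all from run 3, with 1, 3 and 118 cells, and no test was made. In run 3 Tmem119 had 1836 CPM against 2121 CPM in ungated cells and Gpr34 had 2324 against 2841 CPM, while Sparc had 3432 against 3505 CPM. Cells with at least 4 of 8 astrocyte transcripts numbered 71, 23 and 6 and were not tested either. In run 1, which holds most of them, the largest log2 ratio to ungated cells was -0.15, for Crybb1, and Tmem119 was at -0.10. The mean over runs of the median ratio of the 9 genes was -0.36 for immediate early and -0.11 for astrocyte transcript cells on the log2 scale.

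Cells with at least 3 of 4 MHC class II genes and fewer than 3 border macrophage markers, 41, 34 and 49 in number, had lower levels of all 9 genes, beside 6.43% of 11315 genes called lower. Ecscr had 246, 126 and 95.9 CPM against 607, 661 and 561 CPM and had a log2 change of -1.83 ± 0.23 (SE), with adjusted p = 1.52e-13 in edgeR. Siglech changed by -1.59 ± 0.25, Gpr34 by -1.55 ± 0.26, Crybb1 by -1.46 ± 0.22, Tmem119 by -1.38 ± 0.25, Sparc by -1.33 ± 0.28, Olfml3 by -1.12 ± 0.25 and Cx3cr1 by -0.96 ± 0.26 (SE). Fcrls had 1512, 1376 and 525 CPM, below every ungated value and lowest in run 3, and was called lower with an adjusted p of 0.0016 (edgeR). Of the other homeostatic genes 18 of 20 were lower, among them Ltc4s at -1.69 ± 0.23, Slc2a5 at -1.65 ± 0.23, P2ry12 at -1.62 ± 0.28 and P2ry13 at -1.54 ± 0.23 (log2, SE). Without run 2 the count was 5 of 9.

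The MHC class II cells were not uniform. At 2000 UMIs, 22.0%, 43.3% and 53.1% of them in runs 1, 2 and 3 held 3 or fewer of the 9 transcripts, and 56.1%, 33.3% and 30.6% held 7 or more. Markers of other cells were also present. Of the 6 border macrophage markers 2, 3 and 4 had a UMI in runs 1, 2 and 3, with a summed level of 227 to 377 CPM against 3.38 to 6.19 CPM in ungated cells. The 5 monocyte markers summed to 131, 217 and 656 CPM and the 5 dendritic cell markers to 92.3, 0 and 613 CPM, against at most 5.01 and 2.88 CPM in ungated cells, and T and NK cell markers were at 0. The part of such cells in the lower levels was not tested.

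**Figure D3:**
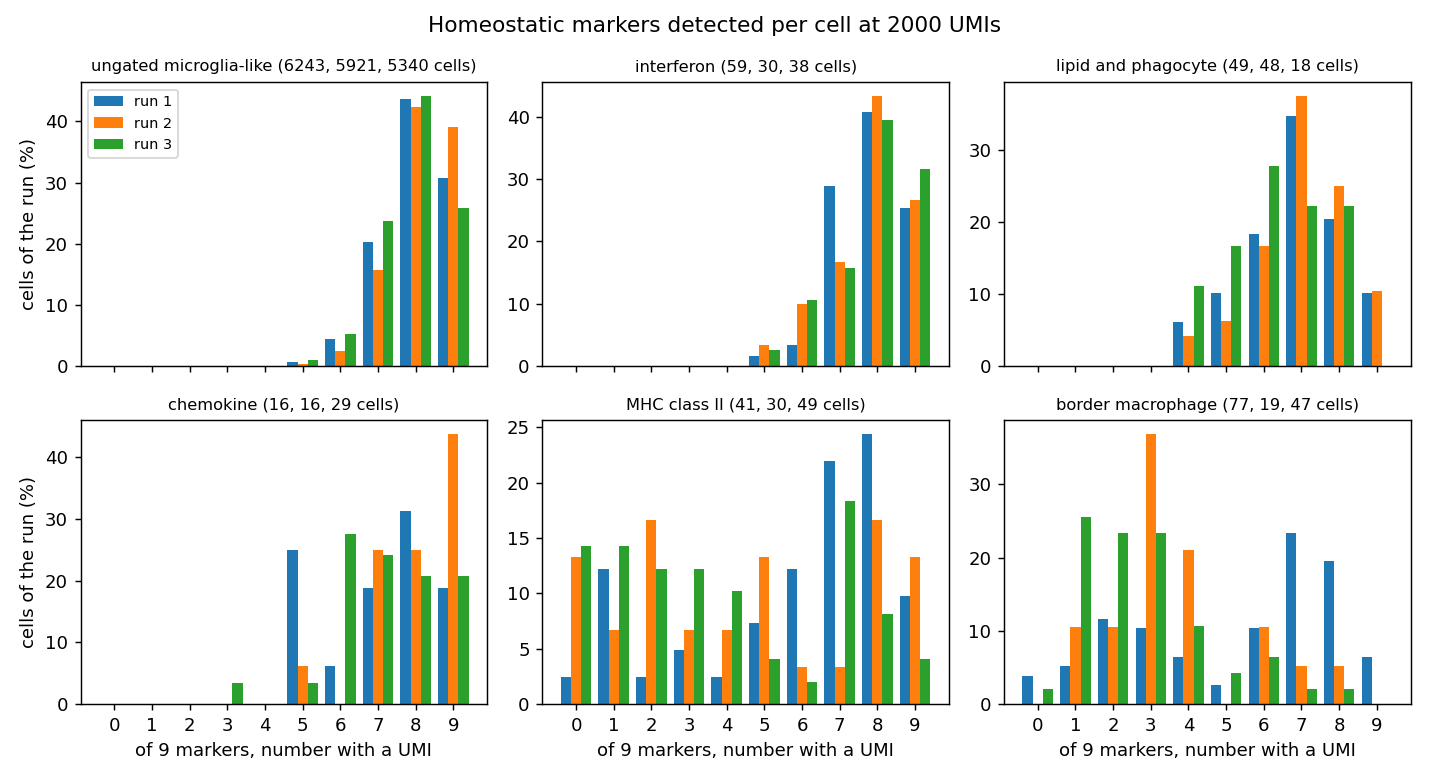
Share of the cells of a run (y axis, percent) that held a UMI of each number of the 9 genes (x axis) after thinning to 2000 UMIs, in 6 populations, with 1 bar per run and the cells of runs 1, 2 and 3 in the titles. In ungated, interferon, chemokine and lipid and phagocyte cells the most frequent number is 6 or more in each run, while MHC class II cells take every number from 0 to 9 in each run. Border macrophage cells do so in run 1, where 49.4% hold 7 or more, and in run 3 74.5% hold 3 or fewer.

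Border macrophage cells, with at least 3 of 6 markers, numbered 77, 27 and 48 and had lower levels of 8 of the 9 genes, while Fcrls was near its level in ungated cells. Tmem119 had 1152, 539 and 178 CPM against 1928, 2867 and 2121 CPM, without overlap, and had a log2 change of -2.06 ± 0.24 (SE), with adjusted p = 2.27e-15 in edgeR. Ecscr had 326, 128 and 21.7 CPM and changed by -2.01 ± 0.25 (SE). The secreted proteins had larger changes than in lipid and phagocyte cells, Sparc with 2064, 859 and 381 CPM (-1.89 ± 0.25) and Olfml3 with 1015, 603 and 212 CPM (-1.68 ± 0.24, SE). Gpr34 changed by -1.66 ± 0.23, Siglech by -1.62 ± 0.23, Crybb1 by -1.34 ± 0.23 and Cx3cr1 by -0.94 ± 0.23 (log2, SE). Fcrls had 1987, 2423 and 1988 CPM against 2329, 2793 and 2094 CPM, a log2 change of -0.09 ± 0.22 (SE, adjusted p = 0.905). The count of 8 of 9 stands beside 3.82% of 11376 genes called lower, and the median log2 change was -1.66 for the 9 genes and -0.09 for all genes tested. Among the other homeostatic genes 16 of 20 were lower, among them Selplg at -1.94 ± 0.24, P2ry12 at -1.90 ± 0.25 and Slc2a5 at -1.75 ± 0.24 (log2, SE).

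The 3 runs did not give the same size of change. The SEs above rest on a spread shared by genes and do not show this difference. For Tmem119 the log2 ratios of the runs were -0.74, -2.41 and -3.57, for Sparc -0.55, -2.29 and -3.20, and for Ecscr -0.89, -2.36 and -4.63, so run 1 was always the smallest. For Fcrls they were -0.23, -0.21 and -0.08, and -0.40, -0.23 and -0.03 without the cells that held transcripts of both sexes. Run 1 also had deeper border macrophage cells, with a median of 8062 UMIs against 3412 and 4324 UMIs in runs 2 and 3, and 26 of its 77 cells held transcripts of both sexes, against 1 of 27 and 3 of 48. Without those cells the ratios of Tmem119 were -1.24, -2.50 and -4.16. The change in run 1 was then larger than before and remained the smallest of the 3, and 8 of 9 genes were still called. Leaving them out cannot remove droplets shared by cells of the same sex, so such mixtures may remain in each run. Over the runs, 70 border macrophage cells held 3 or fewer of the 9 transcripts at 2000 UMIs and 2 of them had transcripts of both sexes, whereas 42 held 7 or more and 21 of them had. Of those 42 cells 38 were in run 1, where their median depth was 11349 UMIs against 4822 UMIs in the 24 cells of run 1 with 3 or fewer. These are counts of cells, which are not replicates, and no test was made on them.

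**Figure D4:**
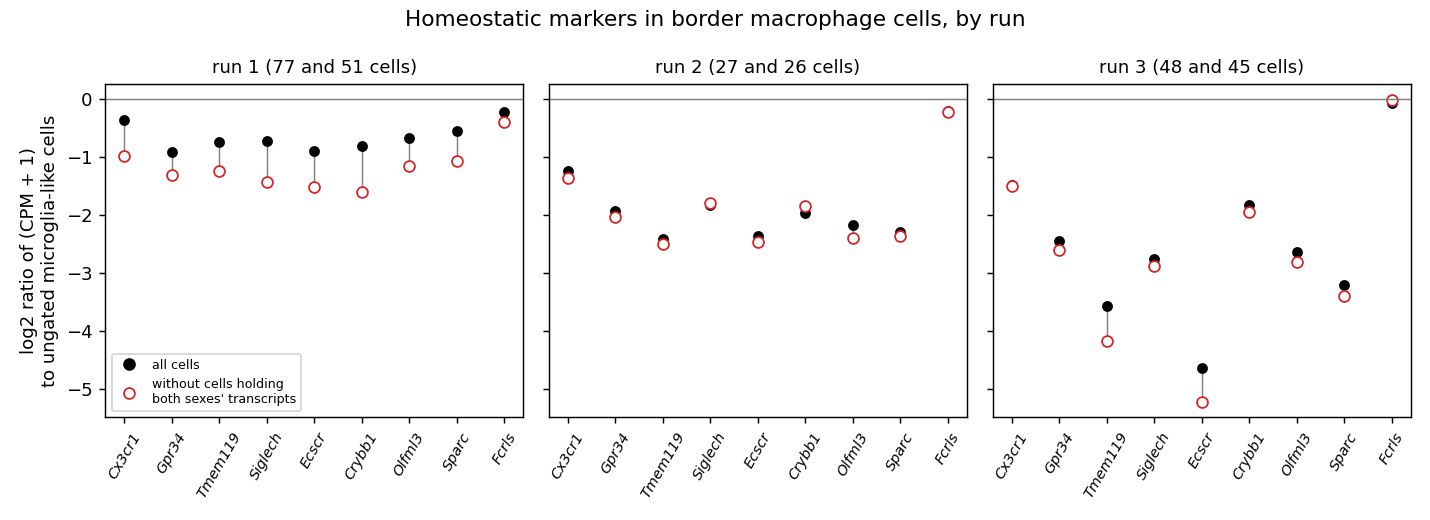
Log2 ratio of CPM (plus 1) of each gene in border macrophage cells to ungated microglia-like cells, 1 panel per run, with all cells (filled) and without cells holding transcripts of both sexes (open), the numbers of cells being in the titles. In run 1 every gene moves down when those cells are left out, Tmem119 from -0.74 to -1.24 and Fcrls from -0.23 to -0.40; in runs 2 and 3 Fcrls stays between -0.23 and -0.03.

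Free RNA gives UMIs in droplets of cells that do not express a gene. The low levels were therefore set beside those in barcodes that held fewer than 4 of the 6 myeloid markers. In 24 kept barcodes with too few myeloid markers, whose median depth was 1334 to 6109 UMIs by run, Tmem119 had 161 CPM, Gpr34 147 CPM, Siglech 174 CPM, Cx3cr1 254 CPM and Sparc 281 CPM over all runs. Fcrls and Olfml3 had 53.6 CPM each there, and Crybb1 and Ecscr no UMI, which allows up to 40.2 CPM by counting error. In run 3 alone, 9 such barcodes had 263 CPM of Tmem119, against 178 CPM in border macrophage cells. Sparc had 316 CPM in them against 381 CPM, and Siglech 184 against 269 CPM, so these 3 genes were at or close to the level of the barcodes. Olfml3 had 79.0 against 212 CPM, Cx3cr1 316 against 957 CPM, Gpr34 52.7 against 520 CPM and Fcrls 79.0 against 1988 CPM. Crybb1 and Ecscr had no UMI in them, which allows up to 79.0 CPM, against 117 and 21.7 CPM. The values of these 9 barcodes rest on 12 UMIs or fewer per gene. The barcodes were chosen for few myeloid markers, and their median depth in run 3 was 1580 UMIs against 4324 UMIs in border macrophage cells. Their levels therefore do not measure the free RNA in droplets of border macrophage cells. Over all runs, levels of all 9 genes were higher in 12 cells with at least 2 T and NK cell markers than in the 24 barcodes. Tmem119 had 400 CPM there, Fcrls 544 CPM and Cx3cr1 1024 CPM. The UMIs of each gene came from 3 of the 12 cells, except for Olfml3 (4 cells) and Cx3cr1 (6 cells). Transcripts of both sexes were held by 2 of the 12, and the part of mixed droplets in these levels was not tested. In the 7 cells with T and NK cell markers of run 3, Olfml3 (220 CPM) and Ecscr (27.5 CPM) were above the border macrophage values and the other genes below. Except for Cx3cr1 and Olfml3, each gene's UMIs in those 7 cells came from 1 cell.

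In the direct test border macrophage cells had lower levels than lipid and phagocyte cells of Sparc (-1.41 ± 0.31), Olfml3 (-1.22 ± 0.29), Ecscr (-1.11 ± 0.33) and Gpr34 (-1.10 ± 0.25, log2, SE), 4 of 9 beside 5.49% of 4077 genes. The adjusted p of Sparc was 0.0022 (edgeR). Tmem119 had 1152, 539 and 178 CPM against 732, 1152 and 779 CPM, so that the populations overlapped and run 1 went the other way from runs 2 and 3, and the difference of -0.63 ± 0.32 was not called (SE, adjusted p = 0.238). Crybb1 differed by 0.01 ± 0.26 and Fcrls by 0.07 ± 0.22 (SE). This comparison depended on single runs: none of the 9 genes was called without run 2 or without run 3 by edgeR, and 7 were called without run 1 and also without cells holding transcripts of both sexes.

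Ungated microglia-like cells with at least 2 Xist UMIs were set against those with Y-linked UMIs only, 2466, 3328 and 2293 cells against 2166, 1254 and 1500. None of the 9 genes was called by edgeR, beside 0.615% of 11227 genes called in either direction, and none by DESeq2. The log2 changes lay between -0.04 ± 0.04 for Sparc and 0.07 ± 0.04 for Ecscr (SE), and the log2 ratios of single runs lay between -0.11 for Fcrls and 0.15 for Olfml3. At an unadjusted p under 0.05, 1101 of all genes passed in edgeR and 175 in DESeq2.

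Profiles were compared across the 8 populations with at least 10 cells in each run, which include the cells that passed several gates. The profile of a gene was its mean log2 CPM per population. Pearson's r is given as a description over 8 points that come from the same libraries. The nearest of the other members had r from 0.94 to 0.99 for each gene but Fcrls, for which it was 0.52. Olfml3 and Sparc were nearest to each other (r = 0.99), as were Gpr34 and Ecscr (r = 0.98) and Cx3cr1 and Siglech (r = 0.98). For each of the 8 other genes the least similar member was Fcrls, with r from 0.23 for Tmem119 to 0.52 for Gpr34. Among 2952 other genes with at least 50 CPM in ungated cells of every run, the profile nearest to Tmem119 was that of Selplg (r = 0.99), nearest to Cx3cr1 was P2ry13 (r = 0.99), and nearest to the mean of the 9 genes were Tjp1 (r = 0.99), Gtf2h2 (r = 0.99), Qk (r = 0.99), Rogdi (r = 0.98) and Zcchc7 (r = 0.98).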

How the data were processed

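RNA of single tdTomato-positive hippocampal cells was counted in 3 runs, which the labels place in 1 group numbered by title. The authors deposited gene-by-barcode tables of raw counts (UMIs per gene and barcode). Per the submitters' processing notes, Cell Ranger, Seurat 4.0 and the mm10 build were used. Software versions 3.0.2 (run 1) and 3.1.0 (runs 2 and 3) stand in the file headers. Counting parameters are not given in the sources used here. Positions are those of GENCODE M21 on GRCm38, where 30934 of 31053 gene IDs were found.

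The run was the replicate. UMI counts of a population were added up within each run and compared by edgeR 4.0.16 (quasi-likelihood test, TMM scaling, filterByExpr, run as a block) in R 4.3.3, with Benjamini-Hochberg adjustment over all genes tested and a threshold of 0.05. No test was made where a run had fewer than 10 cells of a population. In the tests of gated populations against ungated cells the prior degrees of freedom were infinite, so a gene's own spread had no weight. SEs and p-values there rest on a spread shared by genes, and a gene whose runs differ widely can have a small SE. All 9 genes passed the filter in every main test, and 7 or 8 did after thinning in the direct tests between gated populations. Both sums of a run come from 1 library, with correlations of same-run deviations of 0.12 to 0.72 across genes in all comparisons, so the block was kept. For ratios within a run 1 CPM was added to both values. The test was also run on simulated counts with known changes, drawn with 1 spread for all genes and the same change in each run. That does not check it for genes whose change differs between runs. No doublet caller was run, and leaving out cells that hold Xist together with a Y-linked UMI was an alternative. Cells passing the border macrophage gate were counted there first, then those passing the MHC class II gate. Cells passing several other gates (125) were set aside from the main tests. Gate minimums were 3 lipid and phagocyte, 4 interferon, 3 cycling, 5 immediate early, 4 astrocyte, 3 MHC class II and 3 border macrophage markers. At the cut lay 122 lipid and phagocyte cells with 3 markers and 355 with 2, and 21 border macrophage cells with 3 markers and 31 with 2.

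The members and lists were chosen with earlier results of these data known. The text names the 9 genes, up to 4 other homeostatic genes per comparison (largest change among those called and alike in direction in 3 runs) and the nearest profiles. Signalling partners are named beyond that rule, in the comparison of lipid and phagocyte cells, after their values were seen. Alternatives were DESeq2 1.42.0, its size factors in edgeR, no filter, no block, each run left out, a stricter cell filter (2000 UMIs, 1000 genes, 5% mitochondrial), thinning to 2000 UMIs, looser and stricter gates, and several gates counted in each.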

Additional observations from a re-analysis of the deposited data

Results flagged for a closer look

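Siglech was found in cells that entered no comparison. In 7 cells with at least 3 monocyte markers (4 in run 2 and 3 in run 3), Siglech had 67 UMIs, or 1112 CPM over the runs, all in 3 of the cells. The other 8 genes had 0 to 5 UMIs each in these 7 cells, and a count of 0 allows up to 49.8 CPM by counting error. All 7 cells together held 522 UMIs of Cd74. Of the monocyte markers they held 217 UMIs of Plac8, 73 of Ly6c2, 50 of Ccr2, 6 of F10 and 2 of Vcan. Of the dendritic cell markers, Flt3 and Cd209a had 2 UMIs each, in 1 cell each, and Xcr1, Clec9a and Zbtb46 had 0. These counts were not split by whether a cell held Siglech. Siglech is also known from plasmacytoid dendritic cells, as background, and what these cells are was not tested.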

How the results depend on the processing

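The values below are numbers of the 9 genes called lower unless stated otherwise. Leaving out 1 run at a time gave 7 to 8 for lipid and phagocyte cells (8 in the main analysis), 1 to 3 for chemokine (5), 0 to 2 for interferon (2), 5 to 9 for MHC class II (9), 7 to 8 for border macrophage (8), 5 to 7 for Emp3, Fxyd5 and Tnfsf13b cells (7), 0 for the comparison by sex-linked transcripts (0), and, in the direct tests, 1 to 2 for lipid against chemokine (3), 4 to 6 for lipid against interferon (6) and 0 to 7 for border macrophage against lipid (4). Run 1 decided the interferon count (0 without it), run 2 that of MHC class II (5 without it). Without the replicate block the counts were 3 for lipid and phagocyte, 0 for chemokine, 0 for interferon, 0 for Emp3, Fxyd5 and Tnfsf13b cells, 3 for lipid against interferon, 1 for lipid against chemokine and 1 for border macrophage against lipid; the block changed no other count by over 1.5 times. Thinning to 2000 UMIs gave 3 for Emp3, Fxyd5 and Tnfsf13b cells, 0 of 8 genes tested for lipid against chemokine and 1 of 7 for border macrophage against lipid, with fewer cells in each gate. The stricter gate gave 3 for Emp3, Fxyd5 and Tnfsf13b cells, with fewer cells, and looser gates for both populations gave 0 for lipid against chemokine, where the log2 change of Tmem119 turned to 0.0090. Counting cells in each gate they passed gave 8 for chemokine, 4 for interferon and 5 for lipid against chemokine. DESeq2 gave 1 each for chemokine, interferon and lipid against chemokine, and its size factors in edgeR gave 1 for chemokine. Leaving out cells with transcripts of both sexes gave 2 for chemokine and 7 for border macrophage against lipid. The cause of these changes was not tested, also where a smaller number of cells is named. Over these and the values below, 35 alternatives moved a count or value in this way and 116 did not.

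For cycling cells, with no test, the mean over runs of the median log2 ratio of the 9 genes was -0.25, and -0.49 with cells counted in several gates and -0.46 after thinning, with a range of -0.33 to -0.22 when 1 run was left out. For astrocyte transcript cells it was -0.11, and -0.23 after thinning, -0.050 with a looser gate and -0.14 to -0.08 without 1 run. For immediate early cells, it was -0.36, and -0.44 to -0.25 without 1 run. The mean share of ungated cells with a UMI was 89.1% at 2000 UMIs, 94.8% without thinning and 88.2% to 89.8% without 1 run. Numbers of all genes called, with their range over the alternatives, were 1353 (409 to 2111) for lipid and phagocyte, 346 (93 to 946) for chemokine, 183 (105 to 364) for interferon, 483 (18 to 887) for Emp3, Fxyd5 and Tnfsf13b, 1644 (784 to 1784) for MHC class II, 1148 (472 to 1645) for border macrophage and 69 (0 to 115) for sex-linked transcripts, and in the direct tests 163 (15 to 261) for lipid against chemokine, 675 (95 to 948) for lipid against interferon and 513 (89 to 800) for border macrophage against lipid. The stricter gate for lipid and phagocyte cells and thinned cycling cells left fewer than 10 cells in a run, and gave no test. Crybb1 and Ecscr had the fewest UMIs of the 9 genes in border macrophage cells, 263 and 281 over the runs. Without cells holding transcripts of both sexes, Crybb1 had 17 and 23 UMIs there in runs 2 and 3, and Ecscr 12 and 3.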
